A study of Homo sapiens with 4 samples.

Results

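The genes described here encode the surface inhibitors HAI-1 and HAI-2, the protease matriptase, and proteases and substrates that share the epithelial surface with them. They were chosen by name, as 9 genes: SPINT1, SPINT2, ST14, PRSS8, PRSS22, F2RL1, TMPRSS4, TMPRSS13 and EPCAM. They are 9 of 19891 genes that the array's probe sets name. All 9 were found in the gene symbol column of the deposited annotation, through 14 probe sets, of 54613 that are not array controls. A probe set is a group of short probes that reads 1 transcript region. Expression was measured with 4 Affymetrix arrays in the established human cell line SAS, derived from an oral squamous carcinoma. In the knockdown group, 2 arrays, the cells carried a retrovirus whose short hairpin RNA, which cells trim to a small RNA that silences a matching transcript, was aimed at SPINT1. In the control group, also 2 arrays, the hairpin was a scrambled form of the same sequence in the same vector, pSINsi-hU6, so cells of both groups had been infected with a retrovirus. The titles number the arrays of each group as Ex1 and Ex2, here arrays 1 and 2. Both groups were grown alike in RPMI1640 with serum. Each group rests on 1 hairpin, so effects of lower HAI-1 and other effects of that hairpin cannot be told apart. The labels do not say whether infected cells were kept as a pool or as clones, nor whether the arrays of a group came from separate cultures.

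HAI-1 is a membrane-bound Kunitz-type inhibitor that holds trypsin-like serine proteases in check on epithelial cells, and HAI-2 is its closest relative. Matriptase, a serine protease anchored by a single transmembrane segment, is made as an inactive precursor and works with prostasin, which is held by a lipid anchor. Active matriptase cuts other surface proteins, among them the receptor PAR-2 and the adhesion protein EpCAM, and in epidermis and mouth lining this system bears on barrier formation. These are controls of protein activity, and the arrays measured transcripts only.

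Both hairpin sequences are shown because they are the only difference the labels give between the groups. Capitals mark the positions at which they differ, 5′ to 3′.
SPINT1 target: gggCAggCATAGAcTTgaAgG
scrambled control: gggACggAGATTTcACgaGgA
Each is 21 bases long with 6 A, 3 C, 9 G and 3 T. They differ at 12 positions and share 9, and the longest run found in both is 3 bases. The place of the target in the transcript was not analysed here.

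Values are MAS5 signals, linear intensities that the authors scaled to a common trimmed mean per array, with a call of present, marginal or absent for each probe set and array. Between 45.6% and 48.1% of all probe sets were called present on an array. Across the probe sets tested (no independent replicates), Pearson's r was 0.983 for the knockdown pair, 0.987 for the control pair and at least 0.961 across groups. Each marker gene was read on its brightest probe set. Of 10 squamous markers, 8 (KRT5, KRT14, KRT17, TP63, SFN, CDH1, DSP and ITGB4) were called present on all 4 arrays, and KRT6A and PKP1 on the knockdown arrays alone. Among the 8, KRT14 rose 16.7-fold and KRT5 2.62-fold, SFN fell 1.34-fold, and the other 5 did not pass. The leukocyte markers PTPRC and CD74, the endothelial markers VWF, KDR and ESAM and the fibroblast markers COL1A2, COL3A1, DCN and PDGFRB were called present on none, though another probe set of PTPRC was called present on 1 array. Of the markers of other cell types, LAPTM5 and ITGB2 (2 of 4 leukocyte markers tested) and CDH5 and TEK (2 of 3 endothelial markers) rose. Over all genes tested 8.69% rose. ITGB2 rose on 1 of its 2 tested probe sets. The other leukocyte and endothelial markers tested did not pass, CD53 at a log2 change of 0.14, CORO1A at -0.57 and PECAM1 at -0.18. CORO1A read 110 and 146 in knockdown cells and 174 and 220 in control cells. Of the fibroblast markers, LUM was too dim to be tested and was called present on the knockdown arrays alone, and COL1A1 did not pass on its brightest probe set but rose on a dimmer one (log2 change 1.2, limma adjusted p = 0.041). The summed signal of all 6 leukocyte markers was 750 to 819 on knockdown and 596 to 603 on control arrays, and that of the 6 endothelial markers 988 to 1352 and 639 to 659. That of the 6 fibroblast markers was 359.8 to 381 and 325 to 451, and that of the 10 squamous markers 71626 to 79857 and 70271 to 72883. The part of these markers in the results was not tested.

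Of the 9 genes, SPINT1 fell, F2RL1 and TMPRSS4 rose by the limma test, and the other 6 did not pass it. The 2 rises were small or dim and each lost its call under several other settings, whereas the fall of SPINT1 passed under all 15 alternatives run. The test was limma's moderated test on log2(signal + 16), with Benjamini-Hochberg adjustment over all 27307 probe sets whose mean signal was at or above the median (55.4) and a threshold of 0.05. Of the 14 probe sets, 12 were bright enough to be tested, at least 1 for each gene. Of these 12, 3 passed (25%), against 15.5% of all probe sets tested: 2 rose (7.24% of all probe sets were called higher) and 1 fell (8.3% were called lower). The 1 that fell reads SPINT1, the target of the hairpin, so nothing is drawn from the higher share. For 8 of the 12 the knockdown and control signals did not overlap, against 57.6% of all probe sets tested. In 6 of these the knockdown arrays were above the controls (31.3% of all probe sets tested) and in 2 below (26.3%). The median log2 change of the 12 was 0.08, against 0.04 over all probe sets tested. Their median change regardless of sign was 0.16, against 0.26. With 2 arrays a group, the smallest two-sided p that exact permutation allows is 0.333, and limma's p-values rest on a variance modelled across probe sets.

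**Figure D1:**
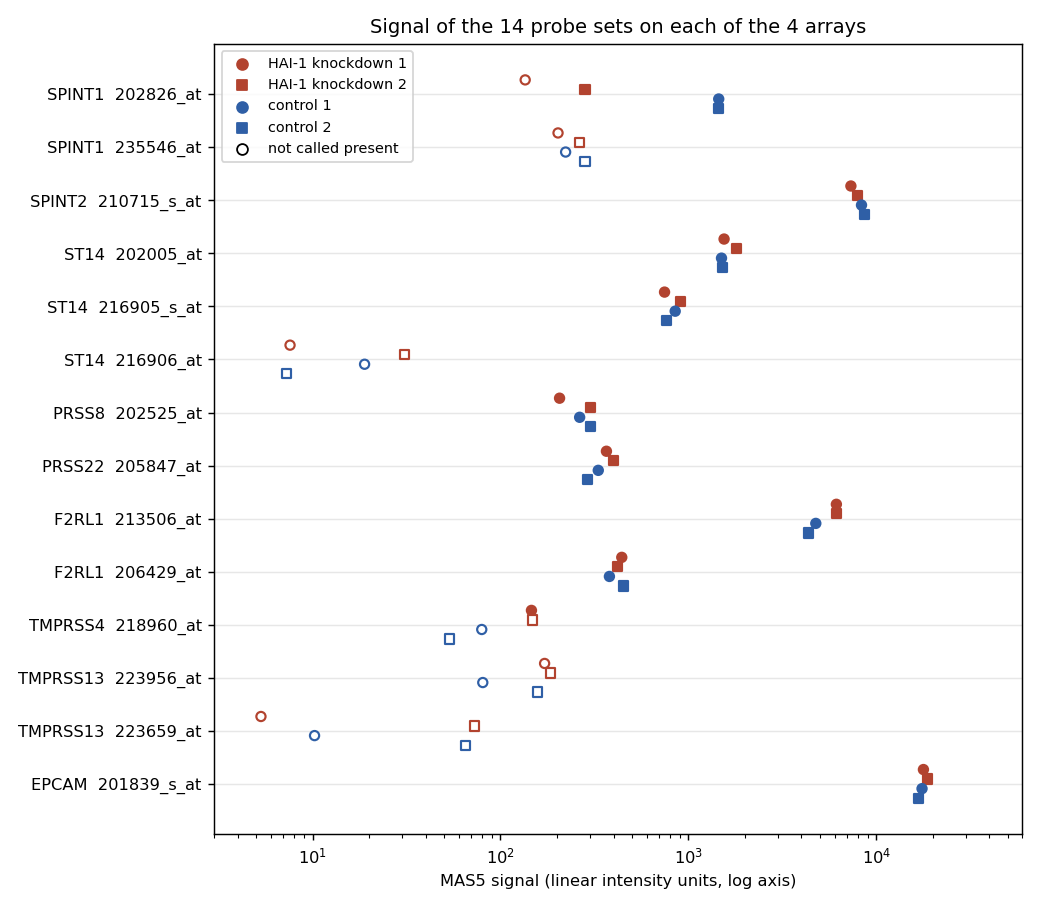
MAS5 signal (linear intensity units on a log axis) of each of the 14 probe sets on the 2 knockdown arrays (red) and the 2 control arrays (blue); filled symbols were called present and open symbols were not. SPINT1 202826_at stands apart, with knockdown signals of 135 and 282 against control signals of 1451 and 1445, while most other rows lie close together.

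SPINT1, the gene for HAI-1 and the target of the hairpin, gave signals of 135 (knockdown array 1), 282 (knockdown array 2), 1451 (control array 1) and 1445 (control array 2) on its brighter probe set (202826_at, chromosome 15, 38923565 to 38937145, plus strand, with the build not given in the sources used here). Both knockdown arrays lay far below both control arrays, and the transcript was called absent on knockdown array 1 and present on the other 3. Knockdown array 2 stood at 19.5% of the control mean, and the signal of array 1, at 9.35%, was not above background, whereas the control arrays were nearly equal. The log2 change was -2.79 (SE 0.25, 95% interval -3.34 to -2.23, limma adjusted p = 4.2e-05). Leaving out knockdown array 1 gave -2.30 and leaving out knockdown array 2 gave -3.27, and it passed in both cases. Among all probe sets tested, 99.8% had a smaller change in either direction. In such bulk RNA, fewer cells with the transcript and less transcript per cell cannot be told apart.

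The other SPINT1 probe set (235546_at), which begins 46 bases past the end of the first in the deposited alignments, was called absent on all 4 arrays. It read 203 and 263 in knockdown cells and 222 and 282 in control cells. These groups overlapped, and the log2 change of -0.11 (SE 0.22) did not pass (limma adjusted p = 0.79). A probe set with no present call cannot show whether the transcript it reads was lowered.

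SPINT2, which encodes HAI-2, stayed bright in both groups. Its probe set (210715_s_at, chromosome 19, 43447133 to 43474928) read 7331 and 7923 in knockdown cells and 8348 and 8638 in control cells. Both knockdown arrays lay below both control arrays, by a margin that did not pass the test. The log2 change was -0.16 (SE 0.10, 95% interval -0.38 to 0.07, limma adjusted p = 0.36), so the interval runs from 0.766 to 1.05 times the control level. Over the 15 alternatives the change lay between -0.23 and -0.10.

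Among the proteases, ST14, which encodes matriptase, was called present on all 4 arrays by 2 of its 3 probe sets. The brighter (202005_at, chromosome 11, 129535049 to 129585466) read 1549 and 1808 in knockdown cells and 1501 and 1518 in control cells. The knockdown arrays lay above the controls, but array 1 only just, and the log2 change of 0.15 (SE 0.12, 95% interval -0.11 to 0.41) did not pass (limma adjusted p = 0.45). The second (216905_s_at) read 747 and 909 against 851 and 766. Here the groups overlapped, with a log2 change of 0.03 (95% interval -0.28 to 0.34, limma adjusted p = 0.92). The third (216906_at) was called absent throughout, at signals between 7.30 and 30.8, and was not tested.

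PRSS8, which encodes prostasin, read 206 and 301 in knockdown cells and 264 and 302 in control cells (202525_at, chromosome 16, 31050256 to 31054549, minus strand). It was called present on all 4 arrays and the groups overlapped. The log2 change was -0.17 (SE 0.22, 95% interval -0.65 to 0.32, limma adjusted p = 0.66). Without knockdown array 1 the change was 0.09, so the direction rests on that array.

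PRSS22, a secreted tryptase-like serine protease of airway and other epithelia, read 367 and 401 in knockdown cells and 332 and 289.9 in control cells (205847_at, chromosome 16, 2842733 to 2848123, minus strand). Both knockdown arrays were above both controls and all 4 calls were present. The log2 change of 0.29 (SE 0.18, 95% interval -0.10 to 0.68) did not pass (limma adjusted p = 0.30), and it stayed between 0.20 and 0.38 over the 14 alternatives that tested it.

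TMPRSS4, a transmembrane serine protease of the same structural class as matriptase, read 146 and 148 in knockdown cells and 79.5 and 53.4 in control cells (218960_at, chromosome 11, 117453020 to 117494375). The groups did not overlap, but the calls were present and marginal on the knockdown arrays and absent on both control arrays, so the signals lay near the limit of detection. Because no control array was called present, the difference is written as at least 2.0-fold higher in knockdown cells; "at least" refers to the control signals not being above background and leaves out the spread between arrays. The log2 change of 1.0 (SE 0.30, 95% interval 0.35 to 1.65) was 0.70 with an offset of 64 and 0.77 without control array 2. It passed by a small margin (limma adjusted p = 0.042). Leaving out any 1 array ended the call, with adjusted p-values of 0.10 and 0.11 without knockdown arrays 1 and 2 and of 0.052 and 0.23 without control arrays 1 and 2. It also ended when dim probe sets were kept (0.17), with no variance trend (0.055), with quantile normalization (0.052) and with each array centred on the median of all probe sets (0.056).

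TMPRSS13, another member of that class, was called present on no array by either of its probe sets. The brighter (223956_at, chromosome 11, 117278969 to 117305306, minus strand) read 172 and 184 in knockdown cells and 80.5 and 158 in control cells. The groups did not overlap, but the control arrays differed widely, and the log2 change of 0.58 (SE 0.30, 95% interval -0.09 to 1.25) did not pass (limma adjusted p = 0.23). Leaving out single arrays moved it between 0.16 and 1.01, the lowest value being without control array 1. The dimmer probe set (223659_at) lay under the filter, at 5.31 and 72.5 against 10.2 and 65.4.

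**Figure D2:**
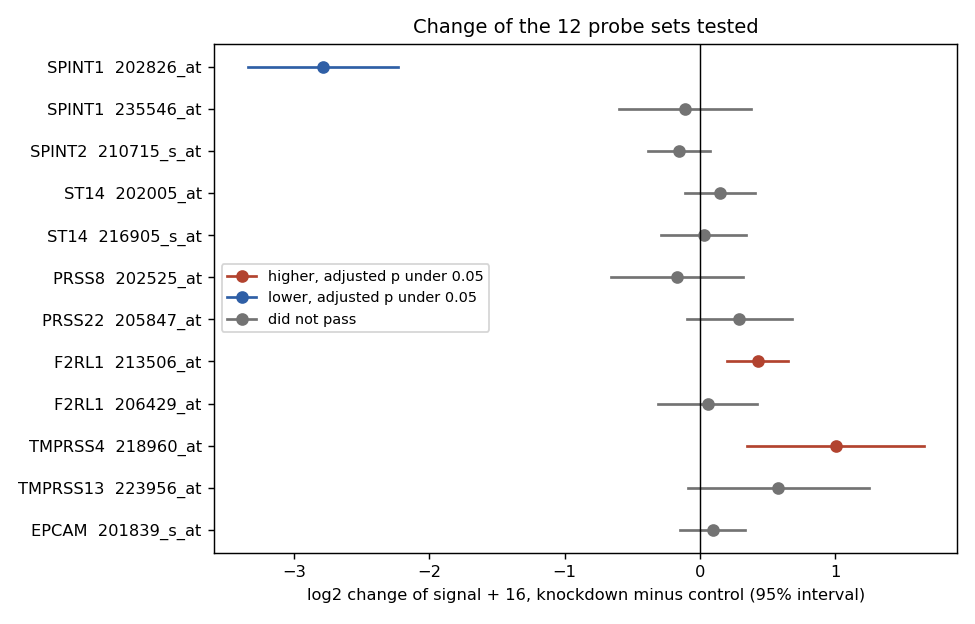
Log2 change (knockdown minus control, on log2 of signal + 16) with its 95% interval from limma for the 12 probe sets tested. SPINT1 202826_at lies at -2.79, F2RL1 213506_at at 0.43 and TMPRSS4 at 1.0, and the intervals of the other 9 include 0.

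F2RL1 encodes PAR-2, a G protein-coupled receptor that is switched on when a protease cuts its outer end. Its brighter probe set (213506_at, chromosome 5, 76165360 to 76166895) read 6136 and 6115 in knockdown cells and 4768 and 4341 in control cells. Both knockdown arrays were above both controls and nearly equal to each other, and all 4 were called present. The log2 change was 0.43 (SE 0.10, 95% interval 0.20 to 0.66), a 1.35-fold rise (limma adjusted p = 0.017). Of 15 alternatives 11 kept the call. It was lost without control array 1 (adjusted p = 0.086), without control array 2 (0.23), with no filter (0.064) and with no variance trend (0.14). The second probe set (206429_at, 76150619 to 76165489) has a deposited alignment that begins upstream of the first and overlaps its start. It read 442 and 421 against 380.1 and 451. It was called present on all 4 arrays, the groups overlapped, and its log2 change of 0.06 had a 95% interval of -0.31 to 0.42 (limma adjusted p = 0.86). The difference between the 2 probe sets was not tested.

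EPCAM, which encodes an epithelial adhesion protein that matriptase can cut, was among the bright transcripts. Its probe set (201839_s_at, chromosome 2, 47449970 to 47467661) read 17830.2 and 18819 in knockdown cells and 17526 and 16784 in control cells. Both knockdown arrays were above both controls, but the gap between the groups was narrower than the spread within either. The log2 change of 0.09 (SE 0.11, 95% interval -0.15 to 0.34) did not pass (limma adjusted p = 0.61), and the interval allows 0.903 to 1.26 times the control level.

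**Figure D3:**
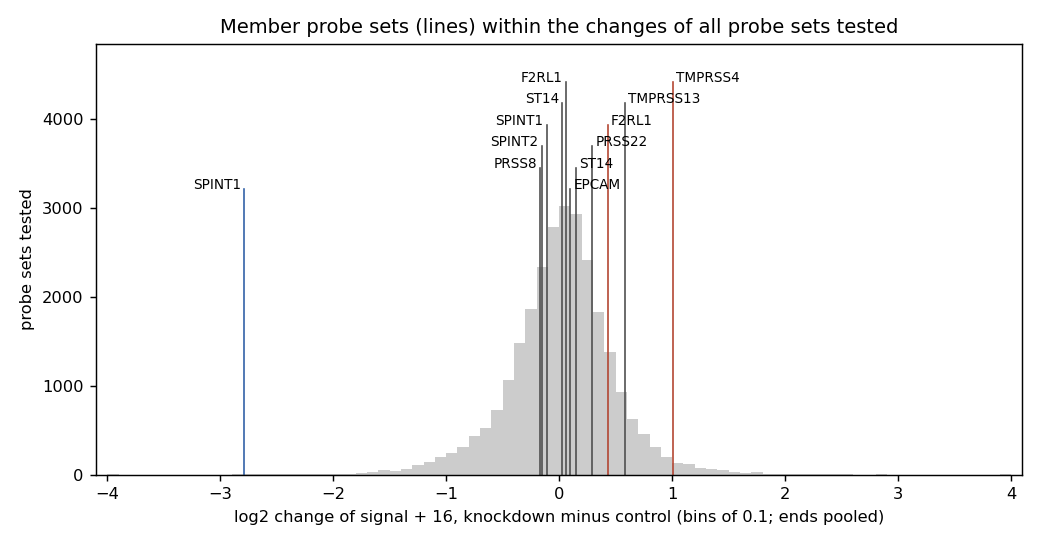
Number of probe sets tested in bins of log2 change (knockdown minus control), with the 12 tested probe sets of the 9 genes as labelled lines (blue called lower, red called higher, dark grey not past the test). Apart from SPINT1 at -2.79, TMPRSS4 at 1.0 and TMPRSS13 at 0.58, the lines lie in the central part of the distribution, whose 25th, 50th and 75th percentiles are -0.23, 0.04 and 0.28, with PRSS22 at 0.29 and F2RL1 213506_at at 0.43 outside them.

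Of the 12 tested probe sets of the 9 genes, 10 read lower on knockdown array 1 than on knockdown array 2, the exceptions being both of F2RL1. Both SPINT1 probe sets are among the 10 and probe sets of 1 gene are not independent, so nothing is drawn from this count. Over all probe sets tested, 48.8% read lower on knockdown array 1. Between the control arrays 6 of the 12 read lower on array 1. The 9 genes lie on 6 chromosomes, and genes near them were described within 2 Mb on each side. Within 2 Mb of F2RL1, 16 other genes were tested, with a median log2 change of -0.0045. Of these, 1 rose, the PAR-1 gene F2R described below, and 1 fell. Around TMPRSS4 it was 2 and 4 of 41, with a median of 0.11, and around SPINT1 2 and 6 of 47, with a median of -0.09. Around ST14 0 rose and 3 fell of 12, around SPINT2 6 and 1 of 48, and around EPCAM 5 and 2 of 18. Around PRSS8 it was 3 and 6 of 63, around PRSS22 7 and 4 of 94, and around TMPRSS13 3 and 4 of 41. TMPRSS13 and TMPRSS4 lie close together, so their windows largely hold the same genes, and TMPRSS4 is 1 of the 3 that rose around TMPRSS13. Over all genes tested 8.69% rose and 10.5% fell.

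By the distance between log2 values over the 4 arrays, each probe set centred on its own mean, the probe sets most like SPINT1 202826_at were those of DRC9, MARK1 and TRIOBP, at distances of 0.32, 0.39 and 0.42. DRC9 read 53.9 and 121 in knockdown cells and 529 and 524 in control cells, so it too was lower on knockdown array 1 than on array 2. MARK1 was called present on both control arrays alone, and TRIOBP on this probe set on none. The probe sets most like F2RL1 213506_at were those of PLEKHM3, CDK12 and GRAMD2B, at distances of 0.02 to 0.03 and with log2 changes of 0.42 to 0.43. With 2 arrays a group, each likeness rests on 4 values, and how many probe sets share either pattern was not counted.

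Of 83 further genes listed by role, 77 had a probe set of their own and 47 were bright enough to be tested on their brightest one. Of these 47, 8 rose (17%), 5 fell (10.6%) and 34 did not pass. Over all 12574 genes tested 8.69% rose and 10.5% fell, so the share that fell was that of all genes. The list was chosen with earlier results of these data known, so nothing is drawn from the higher share that rose. The list's median change was -0.01 on the log2 scale, against 0.02 over all genes tested.

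Among 23 other serine proteases, listed as membrane-anchored or related, 18 were on the array. Of these, 12 had no present call on any array by any of their probe sets, TMPRSS2, TMPRSS11D, PRSS21 and PRSS27 among them. Of the 5 tested, 0 passed the limma test in either direction, and 0 had an unadjusted p under 0.05. Only PRSS23 and PRSS16 of these were called present on all 4 arrays. TMPRSS6, TMPRSS15 and HPN were dim, with signals between 37.0 and 157, where a modest change would be hard to see. HPN, which encodes the transmembrane protease hepsin, had a present call on each knockdown array and on neither control, but its signals of 57.0 and 107 against 42.9 and 82.8 overlapped (limma adjusted p = 0.64).

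Of 9 inhibitors tested, 1 rose and 2 fell by the limma test, with 1 higher and 4 lower at an unadjusted p under 0.05. Their median log2 change was -0.22. TFPI, the gene for tissue factor pathway inhibitor, a Kunitz-type inhibitor like the HAI proteins, read 2374 and 1965 in knockdown cells and 6435 and 7629 in control cells. Both knockdown arrays lay far below the controls, a 3.23-fold fall (log2 change -1.69, SE 0.13, limma adjusted p = 1.3e-05). Of its 6 probe sets tested 4 fell, by 2.20-fold to 4.16-fold, and the 2 dimmest, at log2 changes of -0.14 and -0.06, did not pass. SERPINB2, a serpin that inhibits urokinase, fell 2.51-fold, from 4210 and 5627 to 2071 and 1804 (limma adjusted p = 0.00012). SERPINE2, which encodes protease nexin-1, read 612 and 471 against 241 and 392, a 1.71-fold rise (limma adjusted p = 0.041). Its call was lost in 6 of 15 alternatives, among them those without control array 1 (0.31) and without knockdown array 1 (0.16), with no filter (0.15) and with no variance trend (0.16). The Kunitz-domain proteins of the APP family did not pass, APP at -0.22 (limma adjusted p = 0.19) and APLP2 at -0.06 (0.78). SERPINA1 and SLPI, named after their values were seen, stood at -0.39 and -0.24 and did not pass (limma adjusted p = 0.15 and 0.14). Of the 3 tested SERPINA1 probe sets, 1 dimmer than the brightest fell (log2 change -0.56, limma adjusted p = 0.021).

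Of 8 genes of protease-activated receptors and their coupling, 2 rose. F2R, which encodes PAR-1, the thrombin receptor, read 3657 and 3376 in knockdown cells and 1916 and 1461 in control cells, a 2.09-fold rise (log2 change 1.06, SE 0.13, limma adjusted p = 0.00037) that passed under all 15 alternatives. The x in the name of this probe set (203989_x_at) marks probes that can match other transcripts, and the second F2R probe set, never called present, changed by 0.35 on the log2 scale without passing (0.37). GNA12, a G protein subunit, rose 1.31-fold (limma adjusted p = 0.044), a call that was lost in 7 of 15 alternatives, among them those without any 1 of the 4 arrays. Its second tested probe set was at a log2 change of 0.14 (0.66). The PAR-3 and PAR-4 genes F2RL2 and F2RL3 lay under the filter. ARRB1, the gene for an arrestin that binds activated receptors, was called present on both knockdown arrays alone by its brightest probe set, at 74.9 and 106 against 95.8 and 34.7, which overlap. Its other tested probe set rose (log2 change 1.16, limma adjusted p = 0.034).

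Of 9 genes for EpCAM and its partners, other than EPCAM itself, 2 rose and 0 fell by the limma test, with 1 lower at an unadjusted p under 0.05 (CD44, named after its value was seen). Its brightest probe set stood at -0.32 (limma adjusted p = 0.063), whereas 1 of its 10 tested probe sets rose (0.75, limma adjusted p = 0.022) and 0 fell. CLDN7, the claudin that binds EpCAM directly, read 2709 and 3304 in knockdown cells and 1374 and 1711 in control cells, a 1.94-fold rise (limma adjusted p = 0.00081) that was lost in 1 of 15 alternatives, with no variance trend (0.055). CLDN1, a claudin of the epidermal barrier, rose 1.55-fold, from 18497 and 17241 to 26814 and 28454 (limma adjusted p = 0.0036), and its second probe set rose 1.6-fold (0.0068). Without control arrays 1 and 2 in turn the CLDN1 call was lost, as it was with no variance trend.

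Of 16 genes for proteins reported as cut or activated by matriptase or prostasin, 3 rose and 3 fell on the brightest probe set. PLAU, the urokinase gene, read 2871 and 2696 against 1447 and 1340.5 (limma adjusted p = 0.00015). PDGFC, a growth factor made as a latent precursor, rose 1.90-fold, from 6432 and 6369.9 to 12062 and 12329 (limma adjusted p = 0.00015), and its second probe set rose 1.66-fold. FLG, the gene for filaggrin, a barrier protein of keratinocytes, read 809.8 and 709 in knockdown cells and 21.0 and 36.1 in control cells, and was called present on no control array. It was at least 17.6-fold higher against that background (limma adjusted p = 3.5e-06), and its log2 change of 4.14 was 3.16 with an offset of 64. DSG2, a desmosomal cadherin, fell on both of its probe sets, by 1.47-fold and 1.66-fold (limma adjusted p = 0.0041 and 0.0020). The call of its brighter probe set was lost without control array 1 and with no variance trend. KLK5 and EGFR, named to complete the count after their values were seen, fell 1.5-fold and 1.37-fold (limma adjusted p = 0.021 and 0.023), and both calls were lost in 4 of 15 alternatives, without either control array, with no filter and with no variance trend. EGFR fell on 2 of its 6 tested probe sets. MET, a growth factor receptor also named after its values were seen, did not pass on its brightest probe set (-0.14, limma adjusted p = 0.46) and fell on 2 of the 3 others tested. SCNN1A, a subunit of the epithelial sodium channel, and LAMB3, a laminin chain, both named after their values were seen, stood at 0.38 and -0.35 and did not pass (limma adjusted p = 0.0503 and 0.062). Without knockdown array 2 the falls over the whole list numbered 11 in place of 5, and without control arrays 1 and 2 in turn 2 and 3.

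**Figure D4:**
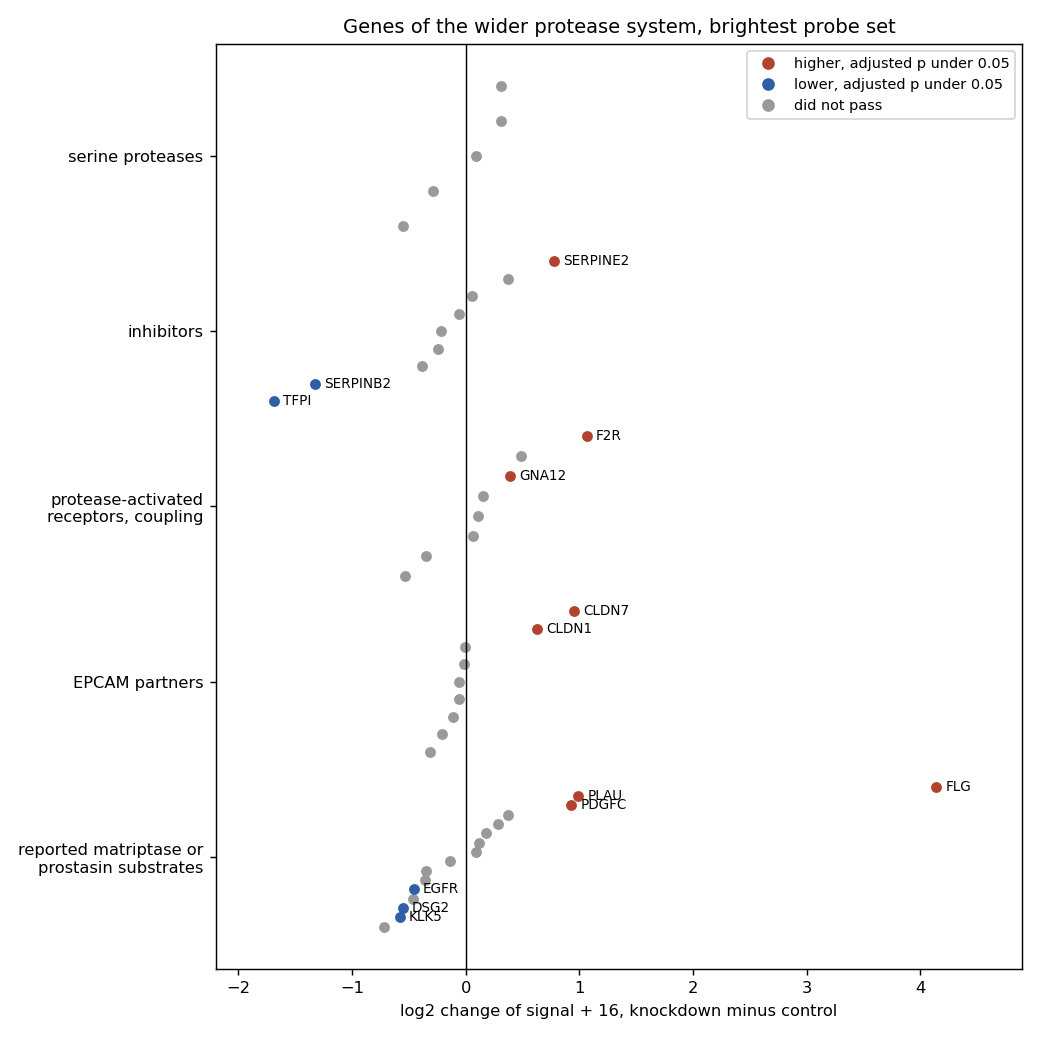
Log2 change (knockdown minus control, on log2 of signal + 16) of the 47 tested genes of the wider protease system, 1 point per gene at its brightest probe set, in 5 groups by role; red rose, blue fell and grey did not pass. The largest fall is TFPI at -1.69 and the highest point is FLG at 4.14, against controls not above background. None of the 5 serine proteases passed, and only 2 of them were called present on all 4 arrays.

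**Figure D5:**
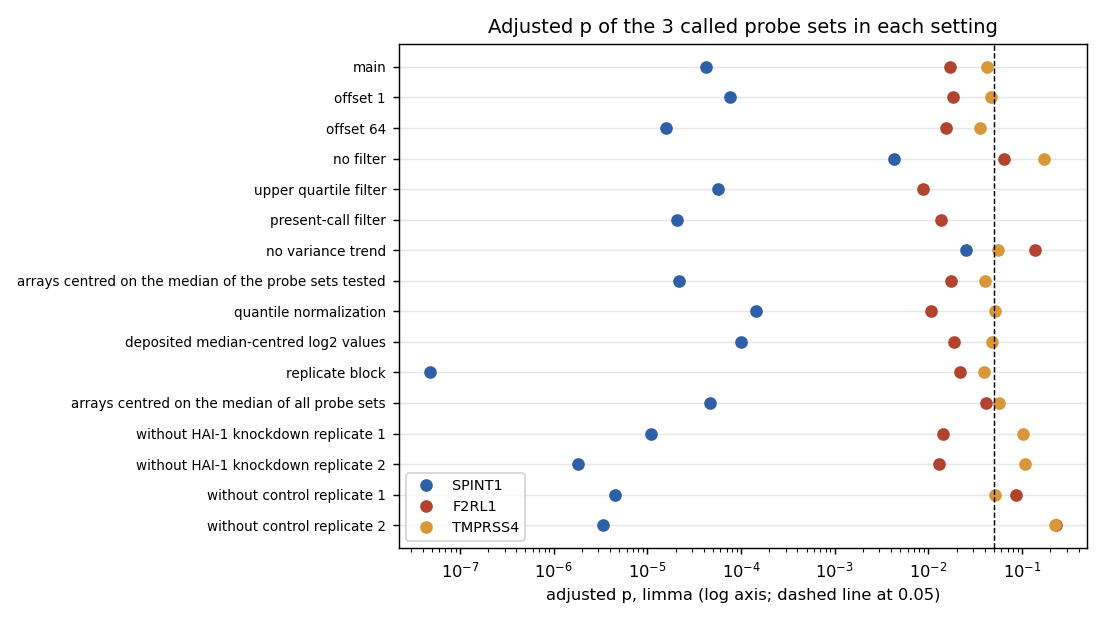
Adjusted p (log axis) of SPINT1 202826_at, F2RL1 213506_at and TMPRSS4 218960_at in each setting of the test, with the threshold of 0.05 dashed; a setting without a point did not test that probe set. SPINT1 lies left of the line in every setting shown, with 0.025 as its highest value, whereas F2RL1 reaches 0.23 and TMPRSS4 0.23.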

How the data were processed

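Per the submitters' processing notes, the authors computed signals with MAS5, which give no version; the deposited signal is an intensity on a linear scale, background-subtracted, with a trimmed mean near 500.1 per array and a floor of 1. Detection p-values and calls were used as deposited: present calls had p-values up to 0.049 and absent calls from 0.065. The deposited log2 values are log2 signals centred on the 4-array median of the probe set (recomputed with a largest difference of 2.4e-06) and served as an alternative. Of 54613 probe sets, 39614 were named through the Entrez number with GRCh38.p14 gene names, 1093 by the file's symbol; 1044 stand for several genes and 12862 for none, and stayed unnamed.

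Changes were tested with limma 3.58.1 in R 4.3.3 (lmFit, eBayes with a mean-variance trend, 2 residual and 9.04 prior degrees of freedom). With no separate cultures stated, p-values cover only the spread among these samples, possibly a technical one, and the number of arrays limits precision. A gene of the wider list is represented by its probe set with the highest mean. A bound ("at least") sets the present group against the higher of each dim array's own signal and its lowest present signal, on the log2(signal + 16) scale. Where the dim signals exceed the lowest present signals, as for TMPRSS4 and FLG, this bound equals the fitted fold. Named are all probe sets of the 9 genes and, in each of 5 groups of the wider list, up to 4 genes past the test with the largest statistic and up to 3 present in 1 group alone. The genes and lists were chosen with earlier results of these data known.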

Additional observations from a re-analysis of the deposited data

How the results depend on the processing

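Alternatives were other offsets (1 and 64), filters, no variance trend, other scalings, the deposited log2 values, the replicate block and leaving out each array; centring on the median of all probe sets was chosen after seeing the data. All probe sets past the test numbered 4244; there were 2211 with no filter, 1517 with no variance trend and 2200 to 4751 without single arrays. Rises among the 9 genes numbered 2; limma gave 0 with no filter and with no variance trend (2 at an unadjusted p under 0.05 in each), 1 with either stricter filter (upper quartile or present calls), which leaves TMPRSS4 untested, 1 with quantile normalization and with arrays centred on the median of all probe sets, and 0 to 1 without single arrays (2 to 3 unadjusted). The single fall, SPINT1, was kept in each. In the wider list 8 rose and 5 fell; without the variance trend 4 rose and 2 fell, with no filter 3 fell, and without single arrays 5 to 7 rose and 2 to 11 fell. With arrays centred on the median of all probe sets 34.9% of all calls were higher, against 46.6%. In the wider list that centring gave 6 rises and 7 falls. Quantile normalization and the upper quartile filter each gave 8 rises and 7 falls there.

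Changes of sign occurred only among probe sets that did not pass. Without single arrays SPINT1 235546_at ranged from -0.29 to 0.066, ST14 216905_s_at from -0.11 to 0.17, PRSS8 from -0.42 to 0.089, F2RL1 206429_at from -0.060 to 0.18, HPN from -0.064 to 0.69 and ARRB1 222756_s_at from -0.086 to 1.05. With arrays centred on the median of all probe sets ST14 216905_s_at was at -0.042 and F2RL1 206429_at at -0.013. The causes were not tested. With the replicate number as a block, 4365 probe sets passed, and among the 9 genes 2 rose and 1 fell, as without it. Deviations of same-numbered arrays from their group means correlated at -0.03 across probe sets. The labels' Ex1 and Ex2 may mark paired experiments, but neither the labels nor this correlation shows it, so the number was treated as a name. When 1 array was left out, the lone array of its group was assumed to vary like the others.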
